A study of Mus musculus with 20 samples.

Results

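Mtf1, Mt1, Mt2 and Slc30a1 encode the metal-sensing transcription factor MTF1, metallothionein 1, metallothionein 2 and the plasma-membrane zinc exporter ZnT1. These 4 genes were followed in mouse fetal liver erythroid progenitors (CFU-E cells, the progenitors that depend on erythropoietin, Epo) on 20 expression arrays. Every probe set annotated to only 1 of these genes was taken, 10 of the 34945 probe sets with 1 gene, and each gene was represented by its probe set with the highest mean over the 20 arrays, which gave 4 of 18193 genes. Mtf1 had 5 probe sets, Mt1 and Slc30a1 had 2 each and Mt2 had 1. The genes were chosen with values from these arrays in view, Mtf1 for its difference between cells with and without Epo, so that difference, and its trend over the hours, is given below as a description and not tested. Slopes within a series use the same arrays, and the comparison of late with early hours uses those with Epo at 1 to 7 h. The p-values of both for these genes are therefore not independent of the choice.

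The cells came from BALB/c fetal livers at embryonic day 13.5, after lysis of red cells and magnetic removal of cells bearing Ter119, the YBM/42 antigen or the lineage markers CD4, CD8, CD11b, CD14, CD41, CD45R/B220 and GR1. In the series with Epo, cells received 0.5 U/ml Epo and 1 array was made at each hour from 0 to 8 h and at 14, 19 and 24 h. In the series without Epo the cells were left untreated, with 1 array at each hour from 0 to 7 h. The series' design text describes a starvation of 1 h in serum-free medium with albumin and β-mercaptoethanol before Epo was given, whereas a sample protocol describes an overnight culture with serum and Epo; all cells of both series are described alike in this respect. No treatment and time has a replicate array, and the labels do not tell whether each time was a culture of its own. The p-values of slopes below therefore measure how arrays scatter around a trend over the hours, a scatter that may be technical. Those of Epo against no Epo measure how far the difference varies from hour to hour. Those of late against early hours measure how arrays vary within each of these spans, any trend there included.

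MTF1 is a zinc-finger protein that binds metal response elements when cytosolic zinc rises and so induces metallothioneins, small cysteine-rich proteins that bind zinc and copper, and Slc30a1, whose product moves zinc out of the cell. Metallothionein genes also respond to glucocorticoids, oxidants and other stresses. Erythroid cells take up much iron and zinc while they make haemoglobin, and fetal liver hepatocytes, which surround them, are a classical site of metallothionein expression.

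The promoters are shown because metal response elements are the sites through which MTF1 is known to act. The windows are from RefSeq on GRCm38.p6 and all 4 genes were matched. The 250 bases before each start are printed, plus strand, 5′ to 3′. Capitals mark each match to TGCACNC or TGCGCNC, the core of the metal response element searched on both strands (as printed, a match on the minus strand reads GNGTGCA or GNGCGCA).
Mt1, chr8:94178839-94179088: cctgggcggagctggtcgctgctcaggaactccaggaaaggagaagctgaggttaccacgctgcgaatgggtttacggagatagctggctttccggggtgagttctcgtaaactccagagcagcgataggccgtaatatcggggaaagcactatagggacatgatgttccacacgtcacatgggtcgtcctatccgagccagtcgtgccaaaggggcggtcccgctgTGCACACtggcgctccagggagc
Mt1, the bases from its start on, chr8:94179089-94179115: tcTGCACTCcgcccgaaaagTGCGCTC
Mt2, chr8:94172368-94172617: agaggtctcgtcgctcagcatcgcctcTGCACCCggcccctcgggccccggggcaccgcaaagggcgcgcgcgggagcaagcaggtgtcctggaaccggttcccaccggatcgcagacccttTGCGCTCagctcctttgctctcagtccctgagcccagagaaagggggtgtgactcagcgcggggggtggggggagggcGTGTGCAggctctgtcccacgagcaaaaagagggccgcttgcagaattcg
Mt2, the bases from its start on, chr8:94172618-94172628: ggtcGTGCGCA
Slc30a1, chr1:191906531-191906780: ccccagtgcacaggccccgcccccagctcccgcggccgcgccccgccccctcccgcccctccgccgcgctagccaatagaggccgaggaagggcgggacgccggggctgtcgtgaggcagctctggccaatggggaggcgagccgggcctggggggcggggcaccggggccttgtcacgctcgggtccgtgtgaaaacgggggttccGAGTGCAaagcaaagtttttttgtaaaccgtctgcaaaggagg
Mtf1, chr4:124802299-124802548: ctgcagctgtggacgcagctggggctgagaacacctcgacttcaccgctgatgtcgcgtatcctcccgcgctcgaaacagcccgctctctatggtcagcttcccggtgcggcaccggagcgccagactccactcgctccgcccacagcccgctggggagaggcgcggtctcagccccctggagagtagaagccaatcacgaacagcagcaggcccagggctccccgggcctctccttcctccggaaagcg

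Over the whole window, from 250 bases before the start to 50 bases after it, Mt2 held 4 matches, Mt1 held 3 and Slc30a1 held 2, while these letters were not found in the Mtf1 window. In Mt1 the matches began at -23, 3 and 21, counting the first base of the start used here as 1. In Mt2 they began at -223, -128, -50 and 5, and in Slc30a1 at -43 and 31, the last beyond the bases printed. Of 32851 RefSeq promoter windows of the same length, 12.6% held TGCACNC at least once, 15.4% held TGCGCNC and 25.7% held either. At least 2 matches occurred in 7.11% of windows, at least 3 in 1.97% and at least 4 in 0.52%. A match is a description of letters and no evidence of binding. Mt2 (chromosome 8, 94172618 to 94173567) and Mt1 (chromosome 8, 94178883 to 94180327) lie next to each other on the plus strand, 5315 bases apart. Slc30a1 spans 191906697 to 191913248 of chromosome 1 and Mtf1 spans 124802549 to 124849800 of chromosome 4. For Mt1 and Slc30a1 the start used for the window lies inside the gene's annotated span, so another annotated start exists upstream of it. The numbers and positions of matches hold for the starts used here alone, and windows at other starts of these genes were not searched.

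Values below are log2 expression values as the authors deposited them, and a difference of 1 is a 2-fold difference. The levels of different probe sets are not set against each other, since each probe set has its own response. Array medians lay between 3.93 and 4.15. The summed markers fixed for the cell types place the samples as follows. Means over 9 erythroid markers (among them Gata1, Klf1 and Epor) lay between 9.73 and 10.40 at 0 to 7 h with Epo, between 10.21 and 11.24 without, and between 10.38 and 10.77 at 14 to 24 h with Epo. Means over 13 hepatocyte markers fell from 10.07 at 0 h to 7.53 at 7 h with Epo and from 8.72 to 6.70 without, and were 6.11, 5.86 and 4.74 at 14, 19 and 24 h. Means over 9 macrophage markers stayed between 3.20 and 3.69 on the 3 sets of arrays, below the array medians. Means over 9 granulocyte markers lay between 4.83 and 6.46. In such bulk samples, fewer cells of a type and less RNA per cell cannot be told apart.

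On their representative probe sets, Mt1 and Mt2, the metallothioneins expressed in most tissues, rose over 0 to 7 h in cells left without Epo. They did not rise over the same hours in cells with Epo. Mt1 without Epo was 12.06 at 0 h and 12.17, 12.73, 13.18, 13.47, 13.72, 13.73 and 13.72 at 1 to 7 h. With Epo it was 11.82 at 0 h, then 11.79, 11.44, 11.83, 11.56, 11.25, 11.30, 11.39 and 11.24 at 1 to 8 h, and 11.46, 12.59 and 12.67 at 14, 19 and 24 h. From 1 h on, each array without Epo lay above each array with Epo of the same hours, and the ranges at 1 to 7 h did not overlap. Mt2 without Epo was 11.88 at 0 h and 12.15, 12.84, 13.27, 13.30, 13.41, 13.38 and 13.50 at 1 to 7 h. With Epo it was 11.68 at 0 h, then 11.75, 11.35, 11.70, 11.45, 11.15, 11.17, 11.32 and 11.28 at 1 to 8 h, and 12.00, 12.83 and 12.81 at 14, 19 and 24 h. Its ranges at 1 to 7 h did not overlap either. The steepest part of both rises without Epo lay between 1 and 3 h. Mt2 gained little after 3 h and Mt1 after 5 h.

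**Figure D1:**
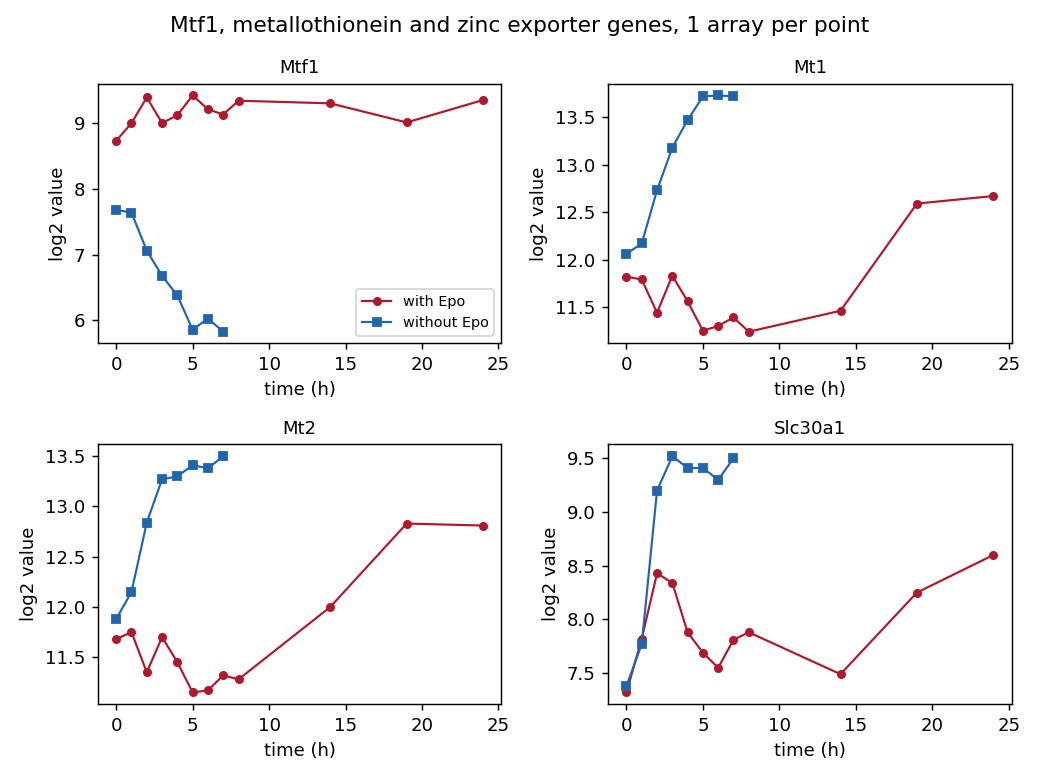
Log2 expression (y axis, its own range in each panel) of Mtf1, Mt1, Mt2 and Slc30a1 against time in hours (x axis), with Epo (red circles, 12 arrays) and without (blue squares, 8 arrays), 1 array per point and so no error bars. Without Epo, Mt1, Mt2 and Slc30a1 climbed to 13.72, 13.50 and 9.50 at 7 h while the Mtf1 probe set shown fell to 5.83.

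Over the 7 h without Epo, Mt1 gained 1.66 (3.16-fold) and Mt2 gained 1.61 (3.06-fold). The fitted slopes were 0.270 per h ± 0.036 (SE) for Mt1 (adjusted p = 3.3e-05, 8 arrays) and 0.229 ± 0.045 for Mt2 (adjusted p = 3.3e-04), both from limma with Benjamini-Hochberg adjustment over the 18193 genes. The same arrays make up the difference used in the choice of genes, so these p-values are no independent test. In the series with Epo, Mt1 and Mt2 declined slightly over 0 to 7 h, each by 0.076 per h (SE 0.025, adjusted p = 0.031, and SE 0.026, adjusted p = 0.036). These calls were lost under several alternatives, for example with quantile normalization (adjusted p = 0.080 and 0.085) and without the 0 h array (0.11 and 0.092). Without Epo 13.3% of all genes passed the test upward and 15.4% downward, and with Epo 2.21% passed upward and 5.88% downward.

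The difference between the series, Epo minus no Epo, averaged -1.73 for Mt1 (SD 0.78, SE 0.29, 7 matched hours) and -1.71 for Mt2 (SD 0.66, SE 0.25), or 3.33-fold and 3.26-fold lower with Epo. Both were lower with Epo at 7 of 7 hours. At 0 h the difference was only -0.24 for Mt1 and -0.20 for Mt2. It widened from -0.37 and -0.39 at 1 h to the extremes of -2.47 and -2.26 at 5 h. The slope of the matched differences was -0.332 per h (SE 0.062) for Mt1 and -0.268 (SE 0.065) for Mt2. Over all genes 7.25% had such a slope called upward and 7.97% downward, but the choice of the 4 genes used these differences, so their slopes carry no p-value and nothing is read from them.

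**Figure D2:**
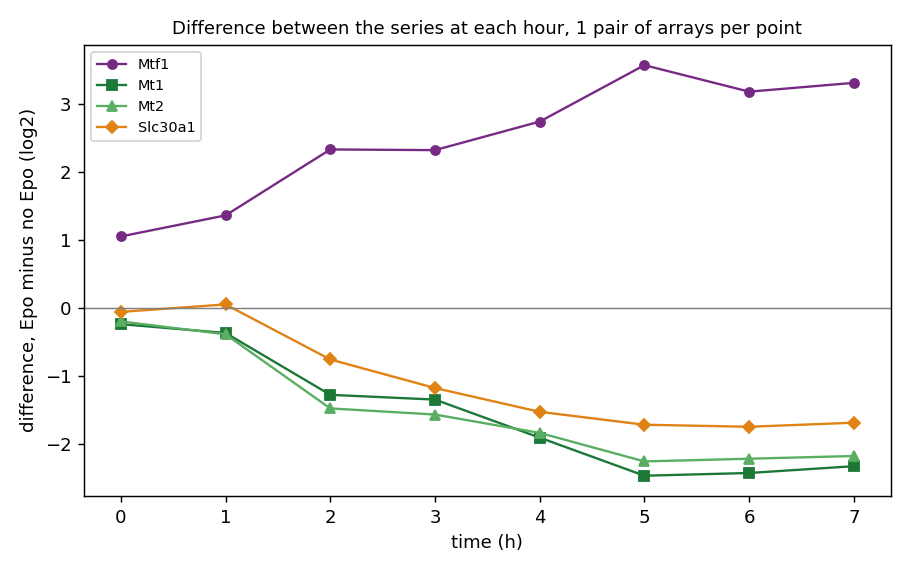
Difference between the series at each hour (y axis, Epo minus no Epo, log2) against time in hours (x axis) for the representative probe sets of the 4 genes, each point 1 pair of arrays. Mt1, Mt2 and Slc30a1 began near 0 and lay between -1.69 and -2.33 at 7 h, whereas Mtf1 by 1429170_a_at began at 1.05 and lay at 3.31 at 7 h. On the mean of all its probe sets, not shown, Mtf1 differed by 0.36 at 1 to 7 h.

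The metallothioneins were higher again late with Epo, at times for which no untreated array exists to compare with. The mean of 14, 19 and 24 h exceeded that of 1 to 8 h by 1.15 ± 0.20 (SE) for Mt2 (adjusted p = 1.6e-04, limma, 11 arrays) and by 0.76 ± 0.26 for Mt1 (adjusted p = 0.010). At 14 h Mt2 (12.00) already lay above its range at 1 to 8 h, whereas Mt1 (11.46) lay within its own. The Mt1 call was lost without the 19 h array (0.590, adjusted p = 0.074) or without the 24 h array (0.551, adjusted p = 0.089). In this comparison 17.6% of all genes were called higher and 18.5% lower. Most of the early arrays also make up the difference used in the choice of genes, so the p-values for Mt1 and Mt2 are no independent test.

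Mt1 has a second, dim probe set, 1451612_at, whose behaviour differed at 1 to 7 h and was alike late. The representative of Mt1, 1422557_s_at, carries the suffix that Affymetrix gives to sets whose probes match transcripts of more than 1 gene, although the annotation lists Mt1 alone. The dim probe set read 5.12 at 0 h without Epo and 5.35, 4.93, 5.03, 5.01, 4.94, 4.76 and 4.96 at 1 to 7 h. In the series with Epo this probe set read 5.94 at 0 h, between 4.49 and 5.22 at 1 to 8 h, and 5.97, 7.03 and 6.40 at 14, 19 and 24 h. Its slope without Epo was -0.047 ± 0.020 (adjusted p = 0.21 over all 34945 probe sets), so the rise of Mt1 without Epo rests on the s_at probe set. Its late difference was 1.67 ± 0.23 (adjusted p = 3.8e-05), higher as in the representative. Whether the s_at probe set also reads Mt2 was not tested, since probe sequences were not used here.

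On its representative probe set, Slc30a1 climbed within the first 2 h in both series, and then stayed high without Epo and fell back with Epo. Its representative, 1436164_at, read 7.38 at 0 h without Epo and 7.77, 9.20, 9.52, 9.41, 9.41, 9.30 and 9.50 at 1 to 7 h. With Epo it read 7.32 at 0 h, then 7.82, 8.43, 8.34, 7.88, 7.69, 7.55, 7.81 and 7.88 at 1 to 8 h, and 7.49, 8.25 and 8.60 at 14, 19 and 24 h. The array at 1 h without Epo lies inside the range with Epo, so the ranges at 1 to 7 h overlapped, while from 2 h on each array without Epo was higher. The gain over 7 h without Epo was 2.12 (4.35-fold).

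The slope of Slc30a1 without Epo was 0.274 per h ± 0.088 (SE, adjusted p = 0.0076, limma), a p-value not independent of the choice of genes. Without the 0 h array it was 0.189 (adjusted p = 0.068). With Epo the slope was -0.007 ± 0.063 (adjusted p = 0.97). The difference between the series averaged -1.23 (SD 0.67, SE 0.25, lower with Epo at 6 of 7 hours, 2.34-fold), ran from 0.05 at 1 h to -1.75 at 6 h and was -0.06 at 0 h. The matched differences had a slope of -0.277 per h (SE 0.062). The late arrays with Epo differed from the early ones by 0.19 ± 0.26 (adjusted p = 0.54).

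The second Slc30a1 probe set, 1422786_at, read 5.70 at 0 h without Epo and 6.01, 6.02, 6.49, 6.69, 6.57, 6.68 and 6.56 at 1 to 7 h. In the series with Epo it read 5.58 at 0 h, then 6.46, 6.82, 6.34, 6.11, 5.82, 6.11, 6.14 and 6.46 at 1 to 8 h. Both Slc30a1 probe sets therefore rose without Epo, and both were at their highest of 0 to 8 h with Epo at 2 h. The slope of 1422786_at without Epo was 0.133 ± 0.031 (adjusted p = 0.0053 over all probe sets) and that of its matched differences was -0.212 ± 0.075. Unlike the representative, it did not step up from 1 to 2 h without Epo. Its mean difference at 1 to 7 h was smaller, -0.18 (SE 0.22), with 2 of the 7 hours higher with Epo.

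Mtf1 read differently on different probe sets, with opposite directions over time without Epo. The representative, 1429170_a_at, read 7.68 at 0 h without Epo and 7.64, 7.06, 6.68, 6.38, 5.86, 6.03 and 5.83 at 1 to 7 h. The arrays with Epo read 8.73 at 0 h, then 9.0, 9.39, 9.0, 9.12, 9.42, 9.21, 9.13 and 9.34 at 1 to 8 h, and 9.30, 9.01 and 9.35 at 14, 19 and 24 h. All arrays with Epo lay above all arrays without Epo, the 0 h arrays included. The suffix a_at marks a set whose probes match several transcripts of the same gene.

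Probe set 1418333_at read 6.92 at 0 h without Epo and 6.80, 7.34, 7.58, 7.53, 7.56, 7.50 and 7.76 at 1 to 7 h. With Epo it read 6.68 at 0 h, then 7.15, 6.80, 7.13, 7.12, 6.80, 7.18, 7.41 and 7.24 at 1 to 8 h, and 7.55, 7.86 and 7.39 at 14, 19 and 24 h. On this probe set the arrays without Epo were the higher ones from 2 h on, and the ranges overlapped. Probe set 1428979_at read 6.80 at 0 h without Epo and 6.39, 7.09, 7.14, 6.99, 7.33, 7.33 and 7.49 at 1 to 7 h. The arrays with Epo read 6.13 at 0 h, then 6.44, 6.64, 6.78, 6.83, 6.35, 6.63, 6.94 and 6.73 at 1 to 8 h, and 6.98, 7.44 and 7.21 at 14, 19 and 24 h. It was likewise higher without Epo from 2 h on. The last 2 Mtf1 probe sets lay near the array medians, 1440414_at with a mean of 4.13 and 1452990_at with a mean of 3.85 over the 20 arrays.

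**Figure D3:**
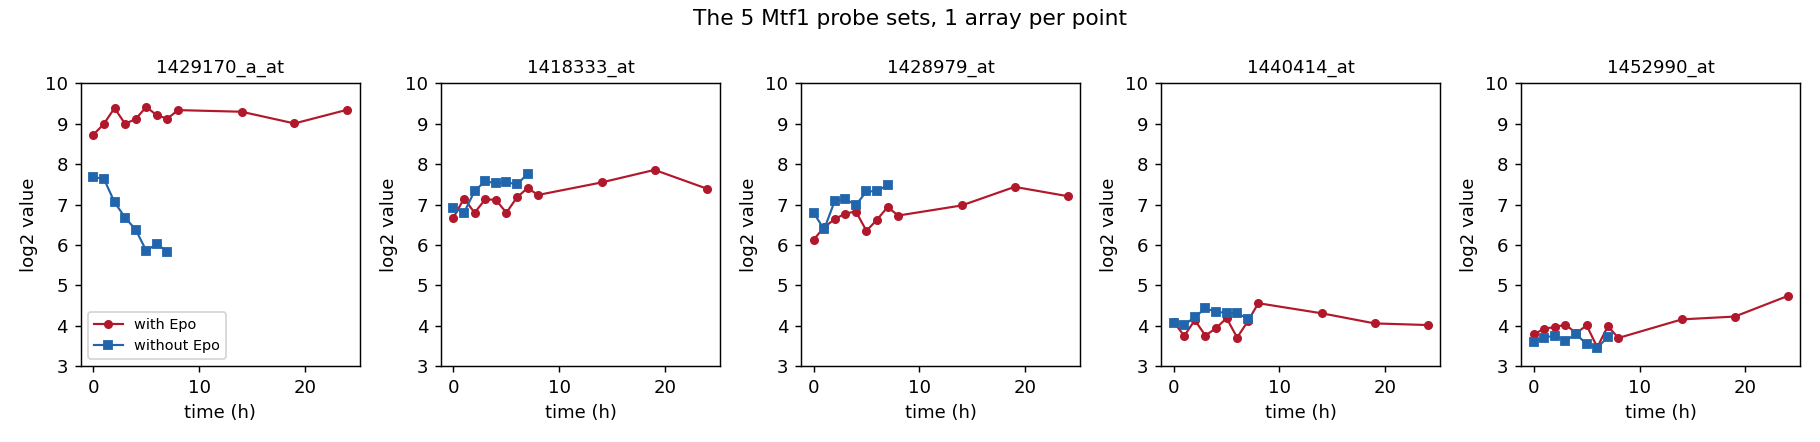
Log2 expression (y axis, the same in all panels) of the 5 Mtf1 probe sets against time in hours (x axis), with Epo (red circles, 12 arrays) and without (blue squares, 8 arrays), 1 array per point. Only 1429170_a_at has ranges at 1 to 7 h that do not overlap, with Epo on top by 2.69 on average. Probe sets 1418333_at and 1428979_at are higher without Epo at 6 of 7 hours each. The dim 1452990_at is higher with Epo at 7 of 7 hours and the dim 1440414_at lower at 7 of 7.

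The mean difference at 1 to 7 h, Epo minus no Epo, was 2.69 for 1429170_a_at (SD 0.76, SE 0.29, 6.44-fold, higher at 7 of 7 hours). It was -0.35 (SE 0.13) for 1418333_at and -0.45 (SE 0.13) for 1428979_at, each lower at 6 of 7 hours. For the dim pair it was -0.32 (SE 0.09, lower at 7 of 7 hours) for 1440414_at and 0.23 (SE 0.07, higher at 7 of 7 hours) for 1452990_at, with ranges that overlapped. The 1429170_a_at difference was already 1.05 at 0 h, before any hour of treatment, and 1.64 once each series was measured from its own 0 h. For 1418333_at the 0 h difference was -0.24, and measured from its own 0 h the mean difference was -0.11. For 1428979_at the 0 h difference was -0.66, and measured from its own 0 h the mean difference turned to 0.22. The mean over all 5 probe sets differed by 0.36. What differed between the cells at 0 h was not tested. Of the 4 genes, 1 was higher with Epo and 2 were lower with ranges that did not overlap. Over all genes 6.56% were higher and 7.31% lower in that way, but the choice of the genes used this contrast and nothing is read from the count.

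Without Epo, 1429170_a_at fell by 0.297 per h ± 0.033 (SE, adjusted p = 4.0e-05, limma over genes), and over the 7 h it fell by 1.85, or 3.60-fold. That p-value is not independent of the choice of Mtf1 for its difference between the series. Over the same arrays 1418333_at rose by 0.119 ± 0.029 (adjusted p = 0.0072 over all probe sets) and 1428979_at by 0.120 ± 0.032 (adjusted p = 0.0099), gains of 0.84 (1.79-fold) and 0.69 (1.61-fold) from 0 to 7 h. The slopes of 1440414_at (0.029, adjusted p = 0.46) and 1452990_at (-0.010, adjusted p = 0.81) did not pass. With Epo no Mtf1 probe set had a slope that passed over 0 to 7 h, and that of 1429170_a_at was 0.049 ± 0.032 (adjusted p = 0.37). The slope of the matched differences, given as a description, was 0.314 per h (SE 0.069) for 1429170_a_at, -0.071 for 1418333_at and -0.104 for 1428979_at. Late with Epo, 1418333_at (0.50 ± 0.15, adjusted p = 0.024), 1428979_at (0.54 ± 0.14, adjusted p = 0.013) and the dim 1452990_at (0.51 ± 0.16, adjusted p = 0.018) were higher than at 1 to 8 h, and 1429170_a_at was not (0.015 ± 0.115, adjusted p = 0.94). These late p-values are not independent of the choice of Mtf1 either.

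The Mtf1 probe sets differed in which arrays were high and low. These correlations are descriptions over arrays that share a series and a time course, and have no test. Over the 20 arrays 1418333_at and 1428979_at correlated at r = 0.90, and the same pair gave 0.89 within the 12 arrays with Epo and 0.91 within the 8 without. Against 1429170_a_at, r was -0.43 for 1418333_at and -0.53 for 1428979_at over 20 arrays, and -0.91 and -0.88 within the series without Epo. Within the series with Epo the latter values were 0.04 and 0.21. Mt1, read here by its s_at probe set, and Mt2 correlated at 0.97 over all arrays, 0.94 with Epo and 0.97 without. The dim Mt1 probe set, 1451612_at, correlated with Mt2 at 0.18 over all arrays, 0.81 with Epo and -0.72 without. Slc30a1 correlated with Mt1 at 0.87 and with Mt2 at 0.85, but at 0.56 and 0.48 within the series with Epo. Mt1 ran against 1429170_a_at (r = -0.90, and -0.31 within the series with Epo) and along with 1418333_at (0.62, and 0.46 with Epo) and 1428979_at (0.71, and 0.57 with Epo). Which Mtf1 transcripts each probe set reads was not examined here.

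The genes with profiles most like each of the 4 over the 20 arrays were named by their Pearson r. For Mtf1 (1429170_a_at) they were Sra1 (0.990), Mrpl33 (0.989), a mitochondrial ribosomal protein, and Ap4s1 (0.988), an adaptor complex subunit. For Mt1 (1422557_s_at) they were Akirin2 (0.975), a nuclear protein, Mt2 (0.975) and Mynn (0.969), a zinc-finger protein. For Mt2 they were Mxi1 (0.978), a MAX partner that antagonises MYC, Mt1 (0.975) and Oga (0.970), the enzyme that removes O-GlcNAc. For Slc30a1 they were Skil (0.947), a SMAD corepressor, Garre1 (0.944) and Tfe3 (0.927), a transcription factor of lysosomal genes. An r of at least 0.95 was reached with 68 genes by Mtf1, 26 by Mt1, 15 by Mt2 and none by Slc30a1, and an r of -0.95 or below with 81, 33, 24 and none.

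The 9 other genes tested as reported MTF1 targets include Slc39a10, which MTF1 is reported to repress and which is counted again among the zinc importers. With Epo at 1 to 7 h, 2 of the 9 were higher (Slc39a10 and Selenow) and 4 lower (Ndrg1, Txnrd2, Gclc and Csrp1). Without Epo 4 rose and 2 fell, Slc39a10 among the latter, beside 13.3% and 15.4% of all genes. The list's median difference at 1 to 7 h was -0.223, beside 0.025 over all genes, of which 18.2% were called higher and 20.2% lower (with median centring of the arrays, 2400 genes higher and 4466 lower in place of 3312 and 3669). Gclc, the catalytic subunit of glutathione synthesis, rose without Epo through 9.01, 9.04, 9.92, 10.47, 10.64, 10.97, 11.06 and 11.28 at 0 to 7 h. With Epo it peaked at 10.14 at 3 h and stood at 9.57 at 7 h. Its slope without Epo was 0.348 ± 0.040 (adjusted p = 2.2e-05, limma), and it was lower with Epo by 0.92 ± 0.21 at 1 to 7 h (adjusted p = 9.5e-04; -0.54 at 0 h).

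Ndrg1, a stress-responsive gene, read 6.19, 5.81, 7.44, 8.45, 8.89, 9.22, 9.10 and 9.04 at 0 to 7 h without Epo. With Epo it began at 7.43, declined to 5.18 by 7 h and stood at 7.34 at 24 h. It was lower with Epo by 2.69 ± 0.61 at 1 to 7 h (adjusted p = 6.4e-04) although 1.25 higher at 0 h, rose by 0.502 ± 0.101 per h without Epo (adjusted p = 3.9e-04) and fell by 0.264 ± 0.062 per h with Epo (adjusted p = 0.0026, lost when s_at and x_at probe sets were left out). Csrp1, a LIM-domain protein, rose without Epo by 0.113 ± 0.019 per h (adjusted p = 0.0019). Its difference at 1 to 7 h was -0.43 ± 0.18 (adjusted p = 0.042), a call lost with quantile normalization. Txnrd2, the mitochondrial thioredoxin reductase, was lower with Epo by 0.98 ± 0.13 (adjusted p = 6.9e-05) and higher late by 1.15 ± 0.15 (adjusted p = 6.5e-05). Cebpa fell by 0.190 per h without Epo (adjusted p = 9.9e-04) and fell by 0.194 with it (adjusted p = 0.013, lost without the 0 h array). Selenow rose by 0.066 per h without Epo (adjusted p = 0.0048, lost on the mean of its probe sets). It was higher by 0.19 with Epo at 1 to 7 h (adjusted p = 0.028), a call lost with median centring and a direction that turned without its s_at or x_at probe set. In the late comparison 3 of the 9 were higher and 1 lower, beside 17.6% and 18.5% of all genes. With Epo 2 of the 9 fell over 0 to 7 h, beside 5.88% of all genes.

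Slc39a10, a zinc importer of the cell surface that MTF1 is reported to repress, ran the opposite way to the metallothioneins at 3 to 7 h. Without Epo it read 8.14, 7.75, 6.81, 5.45, 5.54, 5.44, 5.21 and 5.27 at 0 to 7 h. With Epo it read 7.53, 6.63, 6.78, 7.91, 8.20, 8.00, 7.66, 7.43 and 7.08 at 0 to 8 h, and 4.95, 3.95 and 2.97 at 14, 19 and 24 h. It was lower with Epo until 2 h and higher from 3 h on, for a mean difference of 1.59 ± 0.58 (adjusted p = 0.012). Its slope without Epo was -0.438 ± 0.087 (adjusted p = 4.0e-04), and the late arrays differed from the early ones by -3.503 ± 0.472 (adjusted p = 2.3e-05). The slope of its matched differences, 0.532 ± 0.207 (adjusted p = 0.010), was no longer called without the 1 h or without the 2 h pair.

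**Figure D4:**
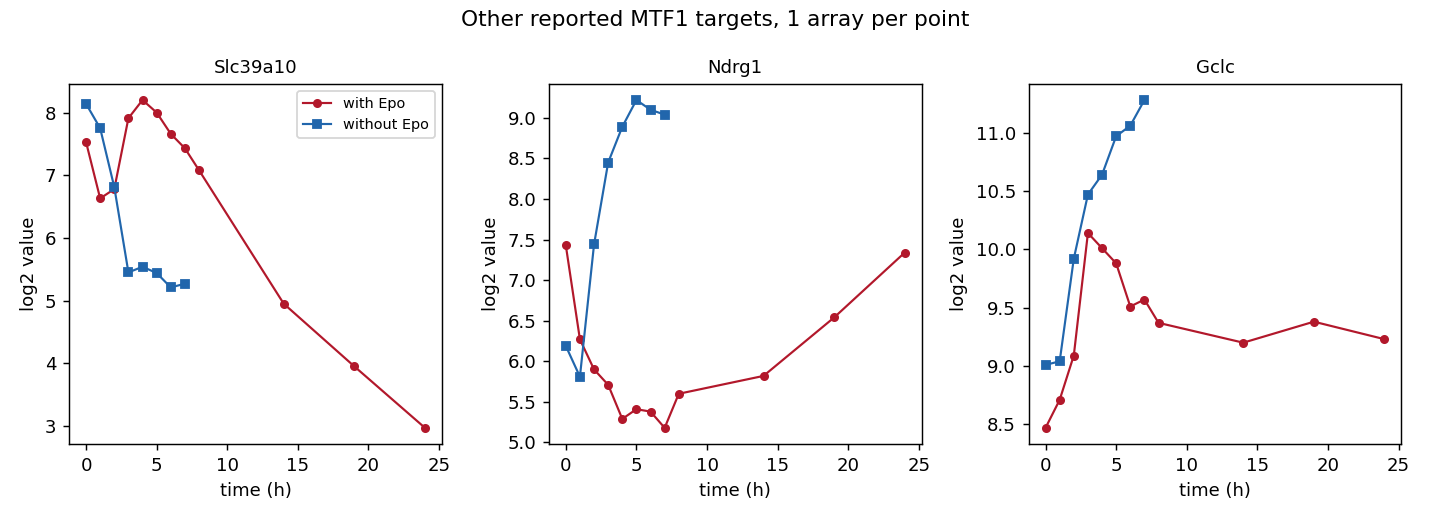
Log2 expression (y axis, its own range in each panel) of Slc39a10, Ndrg1 and Gclc against time in hours (x axis), with Epo (red circles, 12 arrays) and without (blue squares, 8 arrays), 1 array per point. Without Epo, Slc39a10 dropped to 5.27 at 7 h while Ndrg1 and Gclc reached 9.04 and 11.28.

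The other zinc exporters were not called in the directions of Slc30a1. Of 9 SLC30 genes 3 were higher with Epo at 1 to 7 h and none was lower by limma (also 0 at an unadjusted p under 0.05). The shares of all genes were 18.2% and 20.2%. Slc30a2, Slc30a4 and Slc30a8 had means of 2.79, 3.62 and 2.83 over the 20 arrays, below the array medians, where a change may go unseen. Slc30a6, which loads zinc into the secretory pathway, was higher by 1.00 ± 0.05 (adjusted p = 7.6e-06; 0.65 at 0 h) and fell by 0.083 per h without Epo (adjusted p = 0.024, lost without the 0 h array). Slc30a9 was higher by 0.42 ± 0.11 (adjusted p = 0.011) and Slc30a3 by 0.34 ± 0.08 (adjusted p = 0.021, lost with median centring). Slc30a10, a manganese exporter, differed by 0.19 (adjusted p = 0.29) and rose by 0.120 ± 0.039 per h with Epo (adjusted p = 0.041, lost with median centring). Without Epo 1 of the 9 fell and none rose by limma (also 0 at an unadjusted p under 0.05). Of all genes 13.3% rose and 15.4% fell without Epo, and 17.6% were higher and 18.5% lower late with Epo. Late with Epo Slc30a5, Slc30a6 and Slc30a7 were lower, by 0.65, 0.96 and 0.85 (adjusted p = 0.0029, 9.8e-05 and 0.0011, the last lost against the early arrays of 6 to 8 h alone), and Slc30a9 was higher by 0.45 (adjusted p = 0.034, lost with median centring). The matched differences of Slc30a9 alone among the 9 had a slope that passed, 0.119 ± 0.025 (adjusted p = 0.044), lost without any of several single pairs.

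Of 14 zinc importers of the SLC39 family, 3 were higher and 2 lower with Epo at 1 to 7 h, beside 18.2% and 20.2% of all genes. Besides Slc39a10, Slc39a6 was higher by 0.44 (adjusted p = 0.032) and Slc39a5 by 0.37 (adjusted p = 0.010), and Slc39a3 was lower by 0.46 (adjusted p = 0.017). The Slc39a6 call was lost with median centring and the Slc39a3 call with quantile normalization, while the Slc39a5 call was lost without the hour as a block and, measured from its own 0 h, Slc39a5 was at -0.75. Without Epo Slc39a3 rose by 0.141 per h (adjusted p = 0.0011) and Slc39a8 by 0.094 (adjusted p = 0.0063), while 4 members fell, among them Slc39a9 by 0.140 (adjusted p = 0.0037, lost on the mean of its probe sets) and Slc39a1 by 0.120 (adjusted p = 0.0018). Among all genes 13.3% rose and 15.4% fell without Epo. With Epo 3 fell over 0 to 7 h, beside 5.88% of all genes, and of these Slc39a5 fell by 0.198 (adjusted p = 0.0063). Late with Epo 6 were lower and 2 higher, beside 18.5% and 17.6% of all genes. After Slc39a10 the most reduced were Slc39a6 by 1.80 (adjusted p = 1.0e-04) and Slc39a1, the ubiquitous importer ZIP1, by 1.71 (adjusted p = 5.7e-05).

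Neither Mt3 nor Mt4, the other metallothioneins, was called in the directions of Mt1 and Mt2. Their means over the 20 arrays were 5.35 and 3.01, and that of Mt4 lies below the array medians, where a change may go unseen. Mt3, the brain form, was 0.35 ± 0.09 higher with Epo at 1 to 7 h (adjusted p = 0.015, lost without the 6 h pair) and 0.38 higher at 0 h, so that from its own 0 h it was at -0.03. Mt4, the form of stratified epithelia, differed by -0.06 (adjusted p = 0.66). In the 4 other comparisons limma called neither gene (at an unadjusted p under 0.05, 1 higher and 1 lower over time with Epo and 1 higher late).

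Among 6 partners and coactivators at metallothionein promoters, 4 were lower and 1 higher with Epo at 1 to 7 h, beside 20.2% and 18.2% of all genes. Sp1, a factor of GC-rich promoters, was lower by 1.04 ± 0.28 (adjusted p = 0.0023; -0.48 at 0 h) and rose by 0.245 ± 0.040 per h without Epo (adjusted p = 1.7e-04). The acetyltransferase Ep300 was lower by 0.99 ± 0.15 (adjusted p = 1.5e-04), but the difference was already -0.85 at 0 h. Usf1, an E-box factor, was lower by 0.55 ± 0.08 (adjusted p = 0.0010; -0.47 at 0 h). Crebbp was lower by 0.47 ± 0.13 (adjusted p = 0.011; -0.43 at 0 h), and Hif1a was higher by 0.38 ± 0.15 (adjusted p = 0.046, lost with median centring). Without Epo 3 of the 6 rose and none fell, and with Epo limma called none (1 higher at an unadjusted p under 0.05). Of all genes 13.3% rose and 15.4% fell without Epo, and 2.21% rose and 5.88% fell with it. The matched differences of Sp1 alone had a slope that passed (-0.309 ± 0.062, adjusted p = 5.2e-04). Late with Epo, Crebbp was higher by 0.72 (adjusted p = 0.0072, lost without the 24 h array), Ep300 higher by 0.52 (adjusted p = 0.047, lost with median centring) and Hif1a lower by 0.50 (adjusted p = 0.032, lost with quantile normalization).

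Of 10 copper-handling genes, 4 were higher and 3 lower with Epo at 1 to 7 h, beside 18.2% and 20.2% of all genes. The copper chaperones Atox1 (by 0.88 ± 0.05, adjusted p = 5.5e-06; 0.66 at 0 h) and Cox17 (by 0.79 ± 0.15, adjusted p = 3.0e-04) were higher, as were Commd1 (by 1.22 ± 0.12, adjusted p = 8.3e-06; 0.81 at 0 h) and the copper importer Slc31a1 (by 0.79 ± 0.20, adjusted p = 0.0025). The copper-exporting ATPases Atp7a (by 0.92, adjusted p = 0.0022) and Atp7b (by 0.65, adjusted p = 0.0043) were lower. The Cox17 call was lost when probe sets with the s_at or x_at suffix were left out. Without Epo 1 of the 10 rose and 4 fell, beside 13.3% and 15.4% of all genes. Slc31a1 was among those that fell, by 0.237 per h (adjusted p = 1.4e-04). With Epo Atp7a alone changed over 0 to 7 h and fell by 0.231 per h (adjusted p = 0.0019). Late with Epo 1 was higher and 3 were lower, beside 17.6% and 18.5% of all genes. Atp7b was among the lower ones, with a difference of -1.54 (adjusted p = 2.8e-04). Late Cox17 differed by -0.45 (adjusted p = 0.0031) on its representative, and the direction turned with other choices of its probe sets.

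Over all 49 other metal genes of these lists, 13 were higher and 13 lower with Epo at 1 to 7 h, beside 18.2% and 20.2% of all genes. Without Epo 10 rose and 10 fell, beside 13.3% and 15.4%, and with Epo 1 rose and 6 fell, beside 2.21% and 5.88%. Late, 9 were higher and 13 lower, beside 17.6% and 18.5%. The matched differences had a rising slope for 5 and a falling one for 6, beside 7.25% and 7.97%. The median slope of the 49 without Epo was -0.013 per h beside -0.004 over all genes. The counts describe the lists, and nothing particular to metal genes is read from them.

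**Figure D5:**
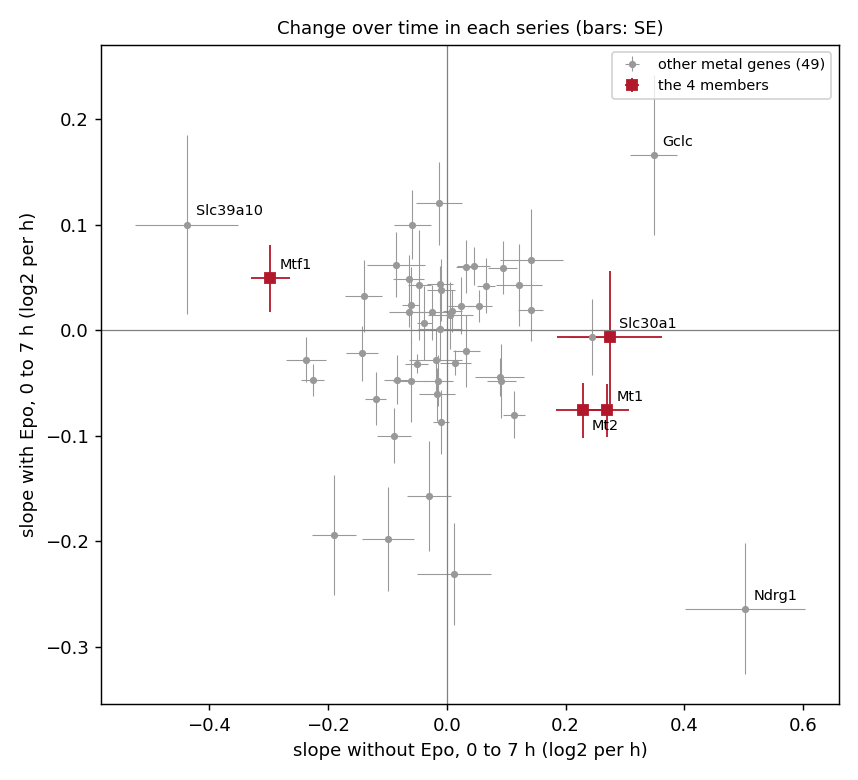
Slope over 0 to 7 h with Epo (y axis, log2 per h) against slope over 0 to 7 h without Epo (x axis, log2 per h) for the 4 genes (red squares) and 49 other metal genes (grey circles). Bars are 1 SE from each gene's own residuals over 8 arrays per series. Mt1, Mt2 and Slc30a1 lie at 0.229 to 0.274 on the x axis and at or just below 0 on the y axis; Mtf1, by its representative probe set, lies at -0.297.

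Genes of 2 other routes to metallothionein induction were counted beside these values. Of 9 genes of the NRF2 oxidative and heavy metal response, 4 were higher and 2 lower with Epo at 1 to 7 h. Over 0 to 7 h, 4 rose and 1 fell without Epo, and 5 rose and none fell with Epo. Of all genes 18.2% were higher and 20.2% lower, 13.3% rose and 15.4% fell without Epo, and 2.21% rose and 5.88% fell with Epo. Srxn1, sulfiredoxin, was higher with Epo by 3.09 ± 0.36 (adjusted p = 7.6e-06; 0 at 0 h) and rose by 0.440 per h with Epo (adjusted p = 0.0028). Nqo1, a quinone reductase, rose in both series, by 0.461 per h without Epo (adjusted p = 1.6e-05) and 0.592 with Epo (adjusted p = 2.4e-07). Hmox1, haem oxygenase, differed by 0.33 at 1 to 7 h (adjusted p = 0.19) and rose by 0.132 per h without Epo (adjusted p = 0.022, lost without the 1 h array). The matched differences of the list rose for 4 and fell for 2, beside 7.25% and 7.97% of all genes. Late with Epo 2 were higher and 4 lower, beside 17.6% and 18.5%.

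Of 8 glucocorticoid-responsive genes, 7 were lower with Epo at 1 to 7 h and 1 was higher, beside 20.2% and 18.2% of all genes. Already at 0 h Klf9 (-0.77), Nr3c1 (-0.48), Fkbp5 (-0.36) and Per1 (-0.23) were lower with Epo, and Zfp36 (0.63) was higher. Measured from their own 0 h, these genes differed by 0.08, -0.1, -0.28, -0.28 and -1.01. Sgk1, the higher gene, differed by 0.59 at 0 h and by 0.03 from its own 0 h. Tsc22d3, also known as GILZ, was lower by 3.26 ± 0.37 (adjusted p = 6.8e-06; -0.53 at 0 h) and Dusp1, a MAP kinase phosphatase, differed by -2.18 ± 0.27 (adjusted p = 1.4e-05; 0.60 at 0 h). Over time without Epo limma called none of the 8 as rising (1 at an unadjusted p under 0.05) and 1 as falling, and with Epo 1 fell. Of all genes 13.3% rose and 15.4% fell without Epo, and 5.88% fell with it. Their matched differences, for the 8 genes, rose for 1 gene and fell for 1, beside 7.25% and 7.97% of all genes. Late 2 were higher and 3 lower, beside 17.6% and 18.5%. The part of these genes' regulators in the metallothionein values was not tested.

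Markers of other cells moved as follows beside the metallothioneins. All 13 hepatocyte markers fell over 0 to 7 h without Epo, while Mt1 and Mt2 rose on the same arrays, and all 13 fell with Epo. With Epo 11 of the 13 were higher at 1 to 7 h and none lower, and they were already apart at 0 h (means of 10.07 and 8.72). Late with Epo 11 of 13 were lower while Mt1 and Mt2 were higher. Of 9 erythroid markers, 6 rose without Epo and none fell, 4 rose and 1 fell with Epo, and 6 were lower with Epo at 1 to 7 h. Late, 5 erythroid markers were higher and 1 lower. Of 9 granulocyte markers, 5 fell without Epo and 2 with it, with 1 higher and 2 lower at 1 to 7 h and 5 higher and 3 lower late. Of 9 macrophage markers 2 were higher late, and limma called none in the other comparisons (at most 1 at an unadjusted p under 0.05 in each). Of all genes 13.3% rose and 15.4% fell without Epo, and 2.21% rose and 5.88% fell with it. At 1 to 7 h 18.2% were higher and 20.2% lower with Epo, and late 17.6% were higher and 18.5% lower. The erythroid markers moved with the metallothioneins without Epo. The part of any of these cell types in the metallothionein values was not tested.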

How the data were processed

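RNA of 20 samples was hybridised to Affymetrix mouse expression arrays after one-cycle labelling, per the labels' protocols. The authors' deposited table holds log2 values for 45101 probe sets, between 1.37 and 14.56. How the probes were summarised and scaled is not given in the sources used. The number of arrays limits the precision.

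By the platform annotation 34945 probe sets had 1 gene, 932 had several, 9160 had none here and 64 were controls. Symbols were matched to RefSeq (GRCm38.p6) for 34741 probe sets and 0 changed. No probe set was filtered out for low signal.

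With limma 3.58.1 in R 4.3.3 (lmFit, eBayes with trend) 5 comparisons were fitted: Epo against no Epo at 1 to 7 h with the hour as a block, the slope of the 7 matched differences, the slopes over 0 to 7 h in each series, and 14, 19 and 24 h against 1 to 8 h with Epo. A gene counted as called where its p-value, adjusted over 18193 genes by the Benjamini-Hochberg method, was under 0.05. Each SE printed comes from the residuals of that gene or probe set alone, whereas limma's p-values use a variance shared in part over genes. The fit for each probe set, over 34945, was chosen after seeing the data. For the 4 genes the first 2 comparisons are given without p-values, although a test of the second was planned, because their choice used those differences. Their slopes within a series share those arrays, and their late comparison shares those with Epo, so neither set of p-values is independent of the choice. The scripts were tested on simulated data. Tables and figures used Python 3.11.15.

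The pairing of the series is by hour, as the labels give it, and replicate numbers pair nothing. Beside the 4 genes and all their probe sets, the rule named up to 3 called genes with the largest change per list and comparison (a selection is printed), Mt3, Mt4, Slc39a10, Slc30a10, Gclc and Hmox1 always, and the 3 genes most correlated with each of the 4, passing over clones and predicted genes. The genes and lists were chosen with earlier results of these data known, so no pattern here is independent of them. Trf, of the hepatocyte list, matched no gene tested. Alternatives were other scalings, other choices of probe set, no variance trend, no hour block, a filter on dim genes, other time spans and leaving out each time.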

Additional observations from a re-analysis of the deposited data

Results flagged for a closer look

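The difference between the series changed over 1 to 7 h, by the slope of the 7 matched differences (limma, adjusted p under 0.05), for 11 genes of the metal lists. Among all genes, 7.25% had such a slope called upward and 7.97% downward. In log2 per h, Epo minus no Epo, the slope was -0.657 for Ndrg1, -0.225 for Gclc, -0.21 for Csrp1 and 0.532 for Slc39a10, all reported MTF1 targets. Among copper genes it was -0.221 for Atp7a, -0.179 for Atp7b, 0.129 for Commd1, 0.163 for Cox17 and 0.225 for Slc31a1. It was 0.119 for Slc30a9 and -0.309 for Sp1. Of these, Atp7a, Atp7b, Commd1, Cox17, Slc30a9 and Slc39a10 lost the call under at least 1 alternative.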

How the results depend on the processing

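The values of Mtf1 and Mt1 changed direction or lost calls with the choice of probe set, whereas Mt2 has 1 probe set and Slc30a1 kept its call without Epo under both other choices, with a mean difference at 1 to 7 h of -0.70 on the mean of its probe sets. With the mean of all its probe sets Mtf1 differed by 0.36 at 1 to 7 h, had matched differences with a slope of 0.027, a slope without Epo of -0.008 (adjusted p = 0.81) and a late difference of 0.335 (0.016). Without s_at and x_at probe sets Mt1 was at -0.21 at 1 to 7 h, and its slopes were 0.112 for the matched differences, -0.047 without Epo and -0.059 with Epo. From its own 0 h Mtf1 differed by 1.64. Correlated over matched differences in place of arrays, 1429170_a_at gave r = -0.75 with 1418333_at and -0.86 with 1428979_at. Subtracting the 0 h difference turned Mt3 to -0.03 and Slc39a5 to -0.747. Selenow at 1 to 7 h turned to -0.034 without s_at and x_at probe sets, and late Cox17 turned to 0.479 in that setting and to 0.017 on the mean of its probe sets.

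The slopes with Epo were the least stable. Those of Mt1 and Mt2 were -0.066 and -0.067 with quantile normalization, -0.067 and -0.076 on the mean of probe sets, -0.076 each without a variance trend and -0.074 and -0.08 over 1 to 7 h, none called. Leaving out 1 time gave -0.091 to -0.068 for Mt1 and -0.095 to -0.066 for Mt2. For Slc30a1 with Epo the slope was 0 with quantile normalization and -0.088 to 0.017 leaving out 1 time. Without Epo the slope of Slc30a1 was 0.189 over 1 to 7 h and 0.189 to 0.331 leaving out 1 time. Late with Epo, Mtf1 was at -0.061 with median centring, -0.01 against 6 to 8 h and -0.052 to 0.121 leaving out 1 time. Late Mt1 ranged over 0.551 to 1.152 and late Slc30a1 over -0.06 to 0.499 in the same way.

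Leaving out 1 time, the genes called numbered 1736 (without 6 h) to 2693 for the change of the difference (2769 with all), 915 (without 6 h) to 1444 for time with Epo (1472 with all) and 4232 (without 24 h) to 7255 for late against early (6579 with all). The 49 other metal genes gave 7 (without 6 h) to 12 calls for the change of the difference, 11 with all. Against 6 to 8 h alone, 2896 genes and 11 metal genes were called late, in place of 22 metal genes. The split of late calls was 2185 higher and 3756 lower with median centring, in place of 3207 and 3372. Without the hour as a replicate block, which cannot move a mean difference here, 6614 genes and 23 metal genes were called at 1 to 7 h in place of 6981 and 26. Among 91 calls of named list genes, 49 held under every alternative tested. The cause was not tested for any of these.

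With 1 array per treatment and time, no value has an error of its own, and the series differed at 0 h.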
